A study of Homo sapiens with 22 samples.

Results

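The clustered, replication-dependent histone genes were followed across 6 groups of HEK293 cells, a human embryonic kidney line, in libraries made from polyadenylated RNA. Members were the rows of the deposited count table whose symbol was H1-1 to H1-6, or H2AC, H2BC, H3C or H4C plus a number, or whose older name belonged to the HIST clusters. They made up 34 of 48162 gene IDs: 6 of class H1, 8 of H2A, 10 of H2B, 6 of H3 and 4 of H4. One of them, H3-4, was found through its older name. A further 37 symbols of these families were not matched to a row and were not analysed here, though rows of these genes may stand in the table under IDs that the name table does not pair with them. The class sums below therefore cover the matched genes alone, 6 of 15 known H3 and 4 of 15 known H4 symbols.

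Core histones of the classes H2A, H2B, H3 and H4 form the protein spool of the nucleosome, and H1 binds the linker DNA between nucleosomes. Cells make most of them during DNA replication from short genes without introns, whose mRNA normally ends in a stem-loop bound by the protein SLBP instead of a poly(A) tail. A minor part of the transcripts of some of these genes does carry a tail, and selection of RNA on poly-T beads, as used here per the labels' protocols, sees mainly that part. The values below are therefore levels of histone RNA captured by its tail, not of all histone mRNA.

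All groups were HEK293 cells. WT cells held a guide RNA and no fusion, were sorted for BFP, and their guide is not stated. The other 5 groups carried a dox-inducible fusion of catalytically dead Cas9 (dCas9), which binds DNA at a guide's site without cutting it, and were sorted for both GFP and BFP. The fusions were VPR (joined activation domains), p300 (an acetyltransferase of histones, from the gene EP300), p300 D1399Y (the same protein carrying a change that impairs its catalysis) and VPRP (VPR and p300 joined). Each was combined with a guide for HBB, which codes for beta-globin (sgHBB), and VPRP also with a non-targeting guide (NonTarget). Dox was given for 48 hours, and each group had 2 libraries, called biological replicates by the series. Whether a line was 1 clone is not stated in the labels.

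Counts per library ran from 14894558 to 17479523, and 16694 genes passed the count filter, 25 of the members among them. The 2 libraries of a group were not copies of each other: their chi-square statistic per gene was 2.86 (VPRP NonTarget) to 13.6 (VPR), where sampling alone gives 1. HBB was counted in all 4 sgHBB groups, from 79.0 CPM (read counts scaled to a common library size) with p300 D1399Y to 1554 CPM with VPRP, and in no WT or NonTarget library. EP300 reads, which cannot be divided between the cells' own gene and the fusion, were at 106 CPM in WT, 98.6 with VPR, 194 with p300 D1399Y, 374 with VPRP sgHBB, 1123 with p300 and 1171 with VPRP NonTarget. The groups also fell on 2 sides by MAGEA10, a gene outside the set, at 9.45 to 32.0 CPM in WT, VPR and VPRP NonTarget and at 0 to 0.213 CPM in p300, p300 D1399Y and VPRP sgHBB. Whether this split reflects the origin of the lines or their fusions was not tested. A line cannot be told apart from its fusion or guide in any comparison of groups, and some, such as p300 or VPRP sgHBB against WT, also cross that split. VPRP NonTarget against WT, VPR against WT, p300 against p300 D1399Y and VPRP sgHBB against p300 each lie within 1 side, which does not show a shared origin. Of the listed HEK293 markers, 6 of 7 had an ID and all 6 were detected, and PTPRC (leukocytes) and ALB (hepatocytes) stayed at or under 0.555 CPM as group means. COL1A1, a collagen gene, ran from 12.2 CPM in WT to 59.9 CPM in VPRP sgHBB.

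The start sites of these genes share sequence features that the choice by name did not use. RefSeq (GRCh38.p14) gave a promoter entry for 32 of the 34 members, 21 on chromosome 6, 10 on chromosome 1 and 1 on chromosome 12. The 250 bases before each start site were searched on both strands, over all of a gene's entries, and set beside all 35116 promoter entries of the table. The TATA motif TATAAA stood in 23 of the 32 members (71.9%) and in 10.7% of all entries, and CCAAT in 29 (90.6%) against 32%. The octamer ATTTGCAT stood in 13 (40.6%) against 1.63%: in 6 of 8 H2A and 6 of 10 H2B genes, and in 1 H3 gene, H3C4, through an entry that it shares with H2AC7. AAACACA, the H1 box, stood in all 6 H1 genes and in no other member, against 4.82% of all entries. The cyclic AMP response palindrome TGACGTCA was found in 4 members, H2BC12, H3C14, H3C15 and H4C8, against 1.65%. These counts are not of separate sites: 6 pairs of members face away from each other with 214 to 247 bases between their start sites. A motif in such a shared stretch, as between H2BC4 and H2AC6, can count for both genes. A match describes the letters and is no evidence that a factor binds there.

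The promoters of H1-2, H2BC5 and H4C8 are shown because the results below turn on these genes, a choice made after their values were seen, and 2 shared stretches because the genes on either side gave different calls. Sequences run 5′ to 3′ on the minus strand, except that of H2BC5 on the plus strand, and end at the last base before the start site of the first named gene. Capitals mark the 5 motifs on either strand.
H1-2 (chr6:26056471-26056620): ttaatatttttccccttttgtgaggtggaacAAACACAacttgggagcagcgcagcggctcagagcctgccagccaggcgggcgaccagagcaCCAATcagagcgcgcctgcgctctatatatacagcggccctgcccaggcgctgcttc
H2BC5 (chr6:26157971-26158120): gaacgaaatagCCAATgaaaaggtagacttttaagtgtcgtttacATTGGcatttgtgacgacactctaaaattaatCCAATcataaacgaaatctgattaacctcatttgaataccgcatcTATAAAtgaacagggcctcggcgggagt
H4C8 (chr6:26285535-26285684): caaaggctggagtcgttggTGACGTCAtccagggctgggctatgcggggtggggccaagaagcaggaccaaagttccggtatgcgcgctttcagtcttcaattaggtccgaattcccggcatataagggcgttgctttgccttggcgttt
H2BC21/H2AC20 (chr1:149886683-149886917): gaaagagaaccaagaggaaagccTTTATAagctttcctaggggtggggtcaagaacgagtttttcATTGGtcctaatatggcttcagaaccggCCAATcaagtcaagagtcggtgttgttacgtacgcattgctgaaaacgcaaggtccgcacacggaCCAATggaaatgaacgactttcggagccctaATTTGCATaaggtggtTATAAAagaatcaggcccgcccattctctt
H2BC4/H2AC6 (chr6:26123927-26124171): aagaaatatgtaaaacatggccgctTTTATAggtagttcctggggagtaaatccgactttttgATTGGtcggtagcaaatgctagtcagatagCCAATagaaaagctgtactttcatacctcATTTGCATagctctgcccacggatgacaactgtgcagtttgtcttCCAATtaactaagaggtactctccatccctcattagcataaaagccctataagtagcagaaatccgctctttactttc

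Summed over the 34 members, histone counts were a small and group-dependent part of each library. They took 0.0199% and 0.0204% of counts in the WT libraries, 0.0243% and 0.0259% with VPR, 0.0223% and 0.024% with p300 D1399Y, 0.0442% and 0.0444% with p300, 0.0405% and 0.0386% with VPRP sgHBB, and 0.0855% and 0.08% with VPRP NonTarget. On the CPM scale the sum was 207 ± 0.435 in WT (SD, n = 2, as for all groups here), 261 ± 14.5 with VPR, 236 ± 15.3 with p300 D1399Y, 443 ± 3.73 with p300, 386 ± 23.3 with VPRP sgHBB and 777 ± 36.0 with VPRP NonTarget. Both libraries of every fusion lay above both WT libraries, and no 2 groups overlapped. VPRP NonTarget had 3.75 times the WT sum, p300 2.14 times and VPRP sgHBB 1.86 times. Sums carry no test. In bulk RNA captured by its tail, more cells in S phase, more histone RNA per cell and a larger tailed share of that RNA cannot be told apart.

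The class sums did not move by one factor. Relative to the WT mean, VPRP NonTarget had 13 times the summed H1 counts, 14.4 times those of H3 and 20.3 times those of H4, but 2.79 times those of H2A and 3 times those of H2B. With p300 the same ratios were 4.4, 4.28 and 5.94 for H1, H3 and H4, and 2.06 and 1.82 for H2A and H2B. With VPRP sgHBB they were 5.3, 6.24 and 7.6, and 1.19 and 1.86. The H2A sum differed in direction between fusions, at 88.8 ± 0.482 CPM in WT, 60.2 ± 4.55 with p300 D1399Y (0.678 of WT) and 183 ± 3.43 with p300. The fall with p300 D1399Y was led by H2AC25, at 74.4 CPM in WT and 44.5 in that group, and was not shared by the class. Of its 5 tested members 2 were called higher there and 2 lower. H3 and H4 were thinly counted, at 0.531 ± 0.294 and 1.46 ± 0.412 CPM in WT, so their ratios rest on few WT reads. Single genes led 3 of the classes: H1-2 held 88.7% to 94.8% of the H1 counts, H2BC12 55% to 86.6% of H2B and H2AC25 66.2% to 84.4% of H2A. The H1 ratios therefore mostly follow H1-2. The H2A and H2B ratios did not follow their leading genes in every group. From WT to VPRP NonTarget H2BC12 went from 84.8 to 170 CPM, and the H2B sum from 102 to 307 CPM. From WT to VPRP sgHBB H2AC25 went from 74.4 to 79.65 CPM, and the H2A sum from 88.8 to 106 CPM. Without these 3 genes, a choice made after seeing the values, the sum in VPRP NonTarget was 7.44 times that in WT, with p300 3.73 times, with VPRP sgHBB 3 times, with p300 D1399Y 1.23 times and with VPR 1.16 times. Median log2 changes of the tested members with VPRP NonTarget were 3.44 (H1), 2.24 (H2A), 2.43 (H2B), 4.15 (H3) and 3.62 (H4).

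**Figure D1:**
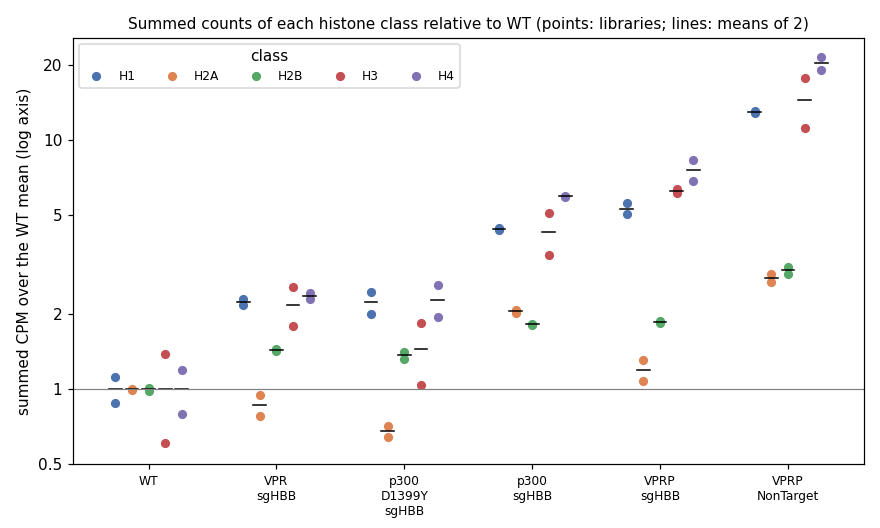
Summed CPM of the members of each histone class, divided by the WT mean of that class, on a log axis. Points are the 2 libraries of each group, short lines their mean and colours the class (H1, H2A, H2B, H3, H4). In VPRP NonTarget the H1, H3 and H4 sums lie at 13 to 20.3 times WT and the H2A and H2B sums at 2.79 and 3 times.

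Gene by gene, the calls below come from the quasi-likelihood test of edgeR, with p-values adjusted by Benjamini-Hochberg over all 16694 genes and a threshold of 0.05. The filter keeps a gene that reaches the minimum in the size of 1 group, so a thinly counted member could pass on the group where it was highest, and counts among the 25 are descriptions. The 5 comparisons with WT share its 2 libraries. VPRP NonTarget against WT called 24 of the 25 higher and none lower, where 31.2% of all genes tested were called higher and 28.5% lower. VPRP sgHBB against WT called 19 higher and none lower (31.1% and 28% of all genes), and p300 against WT also 19 and none (24.5% and 21.6%). VPR against WT called 7 higher and 1 lower (13.8% and 11.5%), and p300 D1399Y against WT called 6 higher and 2 lower (15.7% and 14.5%). The median log2 fold change of the tested members was 2.49 for VPRP NonTarget, 1.49 for VPRP sgHBB, 1.37 for p300 and 0.59 for both VPR and p300 D1399Y, beside medians of 0.04 or less over all genes tested. Placing H1-3 at its limit, since WT had no read of it, did not move these medians.

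**Figure D2:**
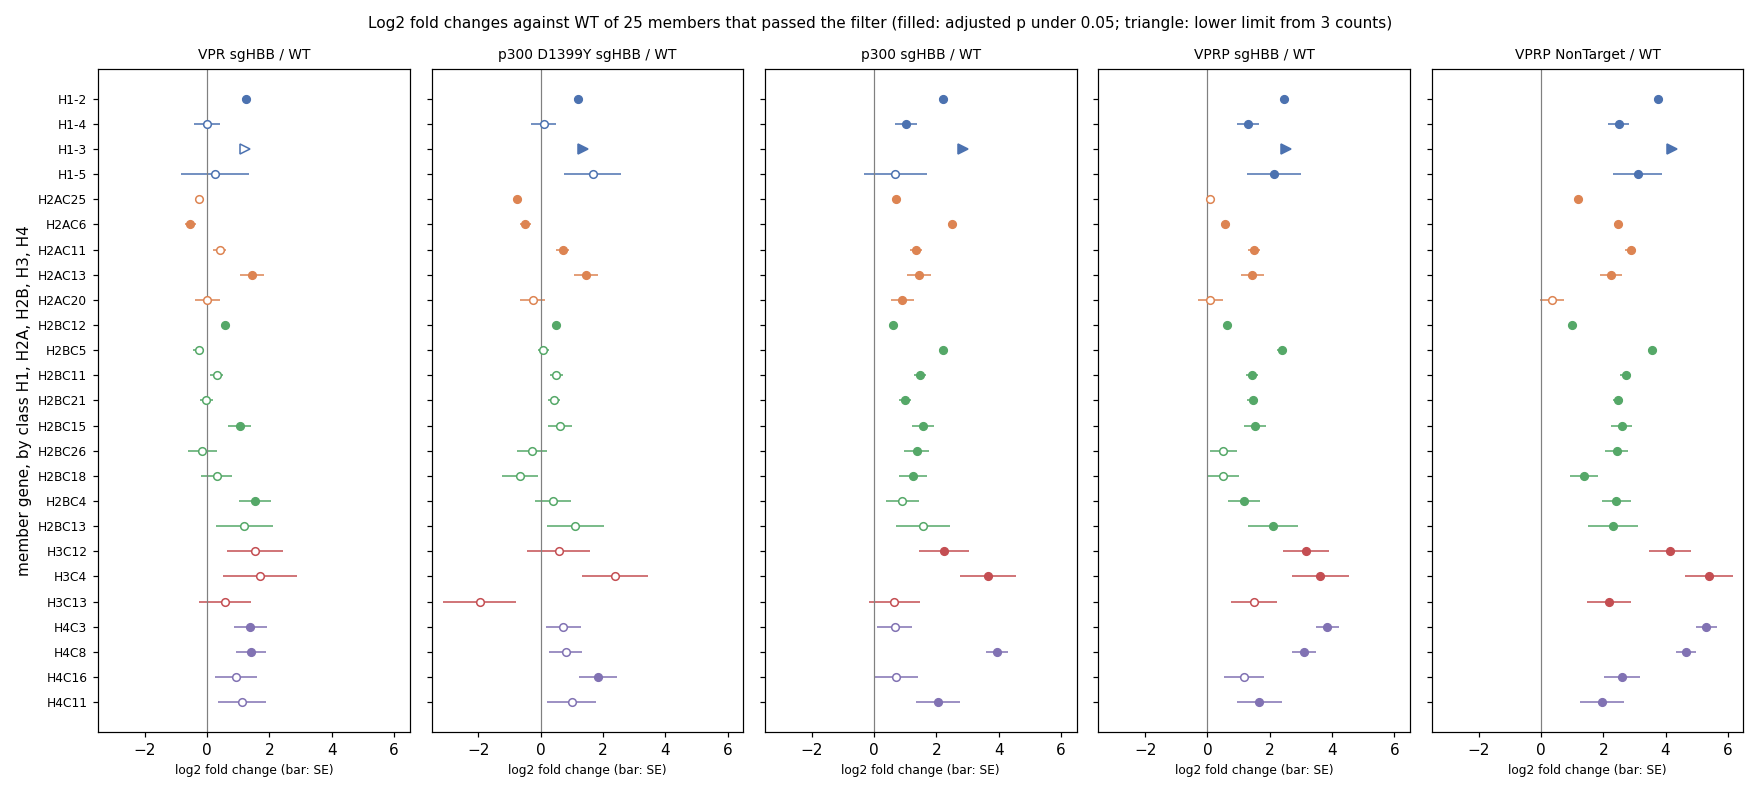
Log2 fold change against WT (x axis, bars are SE) of the 25 members that passed the filter, ordered by class and coloured by it, in 5 comparisons that share the WT libraries. Filled symbols were called at adjusted p under 0.05 and triangles are lower limits for H1-3. In the VPRP NonTarget panel every member but H2AC20 is filled and right of 0, while in the VPR and p300 D1399Y panels most are open.

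Among linker histones, H1-2 (ENSG00000187837), a common somatic H1, gave the widest range. Its levels were 11.5 and 14.2 CPM in WT, 29.4 and 31.1 with VPR, 26.7 and 32.5 with p300 D1399Y, 58.6 and 59.7 with p300, 75.3 and 66.8 with VPRP sgHBB, and 176 and 173 with VPRP NonTarget. The VPR and p300 D1399Y libraries overlapped, and every other pair of groups was apart. Against WT it was 13.6-fold higher with VPRP NonTarget (log2 3.76, SE 0.105, adjusted p = 2.71e-25), 5.53-fold with VPRP sgHBB, 4.60-fold with p300, 2.35-fold with VPR and 2.30-fold with p300 D1399Y (the largest of these 5 adjusted p = 7.59e-10). H1-4 (ENSG00000168298), another somatic H1, was at 0.739 and 1.81 CPM in WT, 1.14 and 1.44 with VPR, 1.501 and 1.244 with p300 D1399Y, 2.69 and 2.53 with p300, 2.48 and 3.81 with VPRP sgHBB, and 7.89 and 6.59 with VPRP NonTarget. WT overlapped VPR and p300 D1399Y, and the remaining groups lay above them. It rose against WT with VPRP NonTarget (log2 2.49, SE 0.322, adjusted p = 4.09e-08), VPRP sgHBB (log2 1.30, adjusted p = 0.00183) and p300 (log2 1.02, adjusted p = 0.0197). Leaving out WT replicate 1 (adjusted p = 0.312) or p300 replicate 1 (0.0789) ended the p300 call, and leaving out WT replicate 1 (0.0829) or VPRP sgHBB replicate 2 (0.0683) ended that of VPRP sgHBB. H1-3 was at 0 in both WT libraries and reached 1.70 and 1.94 CPM with VPRP NonTarget, at least 18.5-fold higher from 3 counts over the WT group (adjusted p = 2.67e-06). With p300 it was at least 7.28-fold and with VPRP sgHBB at least 5.75-fold higher, and the call with p300 D1399Y was lost without any 1 of the 4 libraries. In models of just the 2 groups compared, H1-3 did not pass the filter for p300, VPRP sgHBB or p300 D1399Y against WT. Its calls in these comparisons therefore depended on counts in other groups to pass. H1-5 ranged from 0 to 1.82 CPM and was called higher with VPRP NonTarget (log2 3.11, SE 0.788, adjusted p = 0.00098) and with VPRP sgHBB (log2 2.15, SE 0.863, adjusted p = 0.0321), the latter lost without VPRP sgHBB replicate 1 (adjusted p = 0.248) or WT replicate 2 (0.316).

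H2A genes gave the only called decreases of members against WT. H2AC25 (ENSG00000181218) is a gene of the small histone cluster on chromosome 1. It was at 74.7 and 74.1 CPM in WT, 56.2 and 68.2 with VPR, 41.9 and 47.1 with p300 D1399Y, 119 and 123 with p300, 89.8 and 69.5 with VPRP sgHBB, and 180 and 159 with VPRP NonTarget. Its order therefore had p300 D1399Y and VPR below WT, VPRP sgHBB overlapping WT, and p300 and VPRP NonTarget above. It fell by 0.74 on the log2 scale with p300 D1399Y (SE 0.102, adjusted p = 5.85e-07) and rose with p300 (log2 0.70, SE 0.0956, adjusted p = 2.15e-07) and VPRP NonTarget (log2 1.19, SE 0.0949, adjusted p = 7.71e-13). The VPR value (log2 -0.26) had an adjusted p of 0.0517.

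H2AC6 (ENSG00000180573), one of the histone genes known to make tailed transcripts, separated p300 and VPRP NonTarget from all other groups. It was at 7.05 and 9.37 CPM in WT, 5.32 and 6.02 with VPR, 6.35 and 5.32 with p300 D1399Y, 47.7 and 45.6 with p300, 12.8 and 11.7 with VPRP sgHBB, and 43.9 and 46.6 with VPRP NonTarget. Against WT it was 5.67-fold higher with p300 (log2 2.50, SE 0.130, adjusted p = 4.28e-17) and 5.50-fold with VPRP NonTarget (log2 2.46, SE 0.130, adjusted p = 1.46e-17), but 1.49-fold with VPRP sgHBB (adjusted p = 0.00112). Without WT replicate 1 the VPRP sgHBB call was lost (adjusted p = 0.0637). It fell by 0.54 with VPR (adjusted p = 0.0157) and by 0.49 with p300 D1399Y (adjusted p = 0.0227). Without WT replicate 2 neither decrease was called (adjusted p = 0.308 and 0.379), nor was the first without VPR replicate 1 (0.101) or the second without p300 D1399Y replicate 2 (0.19).

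The other H2A genes were lower in count. H2AC11 (ENSG00000196787) was at 3.76 and 3.17 CPM in WT, 3.92 and 5.26 with VPR, 5.60 and 5.80 with p300 D1399Y, 7.89 and 9.59 with p300, 9.12 and 10.3 with VPRP sgHBB, and 24.4 and 26.8 with VPRP NonTarget. It was 7.39-fold higher than in WT with VPRP NonTarget (log2 2.89, SE 0.176, adjusted p = 7.33e-16). H2AC13 (ENSG00000196747) behaved in another way, with similar levels in 4 of the fusion groups. It was at 0.806 and 1.10 CPM in WT, 2.72 and 2.53 with VPR, 2.19 and 3.11 with p300 D1399Y, 2.08 and 3.12 with p300, 2.08 and 3.09 with VPRP sgHBB, and 5.52 and 3.60 with VPRP NonTarget. Its log2 change against WT was 1.44 to 1.46 in the 4 sgHBB groups and 2.24 with VPRP NonTarget, all called, with adjusted p-values from 1.93e-06 to 0.00517. Without WT replicate 1 the VPR and p300 D1399Y calls of H2AC13 were lost (adjusted p = 0.0666 and 0.0551), as were the p300 D1399Y and p300 calls without replicate 2 of each (0.0548 and 0.0573). H2AC20 ranged from 0.982 to 3.47 CPM and was the member not called in VPRP NonTarget (log2 0.36, SE 0.383, adjusted p = 0.423). With p300 it was called higher than WT (log2 0.90, adjusted p = 0.045), a call lost with DESeq2 (adjusted p = 0.14), with the replicate block (0.0553), and without either p300 library or WT replicate 2 (0.0791 to 0.298).

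In class H2B, H2BC12 differed least and H2BC5 most between VPRP NonTarget and WT. H2BC12 (ENSG00000197903), which is known to make tailed transcripts, was at 86.0 and 83.5 CPM in WT, 125 and 129 with VPR, 115 and 122 with p300 D1399Y, 131 and 130 with p300, 129 and 130 with VPRP sgHBB, and 176 and 163 with VPRP NonTarget. Every fusion group was above WT, by 1.40- to 1.54-fold in the sgHBB groups and 2-fold with VPRP NonTarget (log2 1.00, SE 0.072, adjusted p = 5.34e-14). H2BC5 (ENSG00000158373), from which a tailed transcript is also known, was at 6.78 and 5.30 CPM in WT, 5.69 and 4.31 with VPR, 6.12 and 6.77 with p300 D1399Y, 26.8 and 29.0 with p300, 31.3 and 31.4 with VPRP sgHBB, and 74.2 and 68.9 with VPRP NonTarget. WT overlapped VPR and p300 D1399Y, and p300, VPRP sgHBB and VPRP NonTarget stood above them in that rising order. Against WT it was 11.8-fold higher with VPRP NonTarget (log2 3.57, SE 0.129, adjusted p = 4.29e-22), 5.19-fold with VPRP sgHBB (adjusted p = 1.19e-16) and 4.62-fold with p300 (adjusted p = 5.07e-15). With VPR and p300 D1399Y its log2 changes of -0.26 and 0.09 were not called (adjusted p = 0.293 and 0.728).

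H2BC11 and H2BC21 were also highest with VPRP NonTarget, at lower counts. H2BC11 (ENSG00000124635) was at 3.22 and 4.20 CPM in WT, 4.55 and 4.65 with VPR, 5.95 and 4.49 with p300 D1399Y, 11.1 and 9.77 with p300, 11.0 and 8.94 with VPRP sgHBB, and 25 and 24.1 with VPRP NonTarget. H2BC21 (ENSG00000184678), the last listed gene with known tailed transcripts, was at 4.23 and 3.88 CPM in WT, 3.80 and 4.17 with VPR, 5.20 and 5.67 with p300 D1399Y, 7.95 and 8.24 with p300, 12.3 and 10.0 with VPRP sgHBB, and 22.9 and 22.4 with VPRP NonTarget. Against WT, H2BC11 was 6.59-fold and H2BC21 5.57-fold higher with VPRP NonTarget (adjusted p = 3.53e-15 and 9.77e-15), and neither was called with VPR or p300 D1399Y. Of the remaining H2B members that passed, H2BC15 ranged from 1.01 to 9.22 CPM, H2BC26 from 0.696 to 5.48, H2BC4 from 0.452 to 3.34, H2BC18 from 0.462 to 2.81 and H2BC13 from 0 to 1.33. All 5 were called higher in VPRP NonTarget than in WT, with log2 changes of 1.39 (H2BC18) to 2.59 (H2BC15). The H2BC13 and H2BC18 calls were lost without WT replicate 1 (adjusted p = 0.196 and 0.0613) and without VPRP NonTarget replicate 2 (adjusted p = 0.171 and 0.08).

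The matched H3 genes were thinly counted, and 9 further H3 and 11 further H4 symbols were not matched, so these values do not give the level of either class. H3C12 (ENSG00000197153) was at 0.201 and 0.129 CPM in WT, 0.127 and 0.889 with VPR, 0.289 and 0.207 with p300 D1399Y, 0.978 and 0.647 with p300, 1.17 and 1.88 with VPRP sgHBB, and 4.31 and 1.83 with VPRP NonTarget. The WT libraries lay below both p300 libraries, and the VPRP sgHBB and VPRP NonTarget libraries overlapped. It was called higher than WT with VPRP NonTarget (log2 4.15, SE 0.680, adjusted p = 3.02e-06), VPRP sgHBB (log2 3.17, SE 0.736, adjusted p = 0.000397) and p300 (log2 2.25, SE 0.811, adjusted p = 0.0225). The p300 call was lost without either WT library (adjusted p = 0.0678 and 0.133) or p300 replicate 1 (0.127). H3C4 reached 3.16 CPM and had 0.134 and 0 CPM in WT, which makes the ratio of summed counts 46.6 for VPRP NonTarget (95% binomial interval 12.6 to 390, counting error only; adjusted p = 2.29e-07). The ratio was 14.1 (3.59 to 122) with p300, a call lost without p300 replicate 2 (adjusted p = 0.0767), and 13.6 (3.45 to 118) with VPRP sgHBB. H3C13 ranged from 0 to 1.76 CPM and was called with VPRP NonTarget alone among the comparisons with WT (log2 2.19, adjusted p = 0.00726), a call lost without WT replicate 2 (adjusted p = 0.0874) or VPRP NonTarget replicate 1 (adjusted p = 0.215).

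In class H4, H4C3 and H4C8 ordered the p300 and VPRP sgHBB groups in opposite ways. H4C3 (ENSG00000197061) was at 0.537 and 0.259 CPM in WT, 1.33 and 0.752 with VPR, 0.462 and 0.898 with p300 D1399Y, 0.795 and 0.471 with p300, 6.58 and 5.08 with VPRP sgHBB, and 16.9 and 15.1 with VPRP NonTarget. Its VPRP libraries, with either guide, lay above all others, and p300 overlapped WT. With VPR both libraries were above WT and the gene was called higher (log2 1.39, adjusted p = 0.044), a call lost with DESeq2 (0.0628) and without VPR replicate 1 (0.343) or WT replicate 2 (0.303). Against WT it was 39.7-fold higher with VPRP NonTarget (log2 5.31, SE 0.337, adjusted p = 2.16e-15) and 14.4-fold with VPRP sgHBB (log2 3.85, SE 0.377, adjusted p = 1.04e-10), and its p300 value was not called (log2 0.66, SE 0.564, adjusted p = 0.35). H4C8 (ENSG00000158406) was at 0.403 and 0.388 CPM in WT, 0.949 and 1.16 with VPR, 0.577 and 0.829 with p300 D1399Y, 6.18 and 6.12 with p300, 3.98 and 2.93 with VPRP sgHBB, and 10.3 and 9.96 with VPRP NonTarget. Here p300 stood above VPRP sgHBB. Against WT H4C8 was 15.3-fold higher with p300 (log2 3.93, SE 0.353, adjusted p = 4.30e-11), 8.53-fold with VPRP sgHBB (adjusted p = 1.72e-08) and 25.2-fold with VPRP NonTarget (adjusted p = 5.03e-14).

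The remaining H4 genes were weaker. H4C16 (ENSG00000197837), the member on chromosome 12, was at 0.201 and 0.517 CPM in WT, 0.380 and 1.03 with VPR, 1.39 and 1.244 with p300 D1399Y, 0.489 and 0.706 with p300, 0.521 and 1.10 with VPRP sgHBB, and 2.73 and 1.72 with VPRP NonTarget. It was called higher than WT with VPRP NonTarget (log2 2.59, adjusted p = 0.000227) and with p300 D1399Y (log2 1.84, adjusted p = 0.0206), and the latter was lost without WT replicate 1 (adjusted p = 0.193) or p300 D1399Y replicate 1 (0.0921). H4C11 ranged from 0 to 1.40 CPM. Its calls with p300, VPRP sgHBB and VPRP NonTarget (log2 2.05, 1.66 and 1.97) were all lost without WT replicate 2, whose count was 0 (adjusted p = 0.251, 0.464 and 0.254). Each was also lost without 1 or both libraries of the other group. The 9 members that did not pass the filter were H1-1, H1-6, H2AC1, H2AC7, H2AC21, H2BC1, H3-4, H3C14 and H3C15. H1-1, H2AC1 and H2BC1 had no read in any library, which allows at most 0.0868 to 0.0988 CPM over the 2 libraries of a group, and the other 6 stayed at or under 0.277 CPM.

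**Figure D3:**
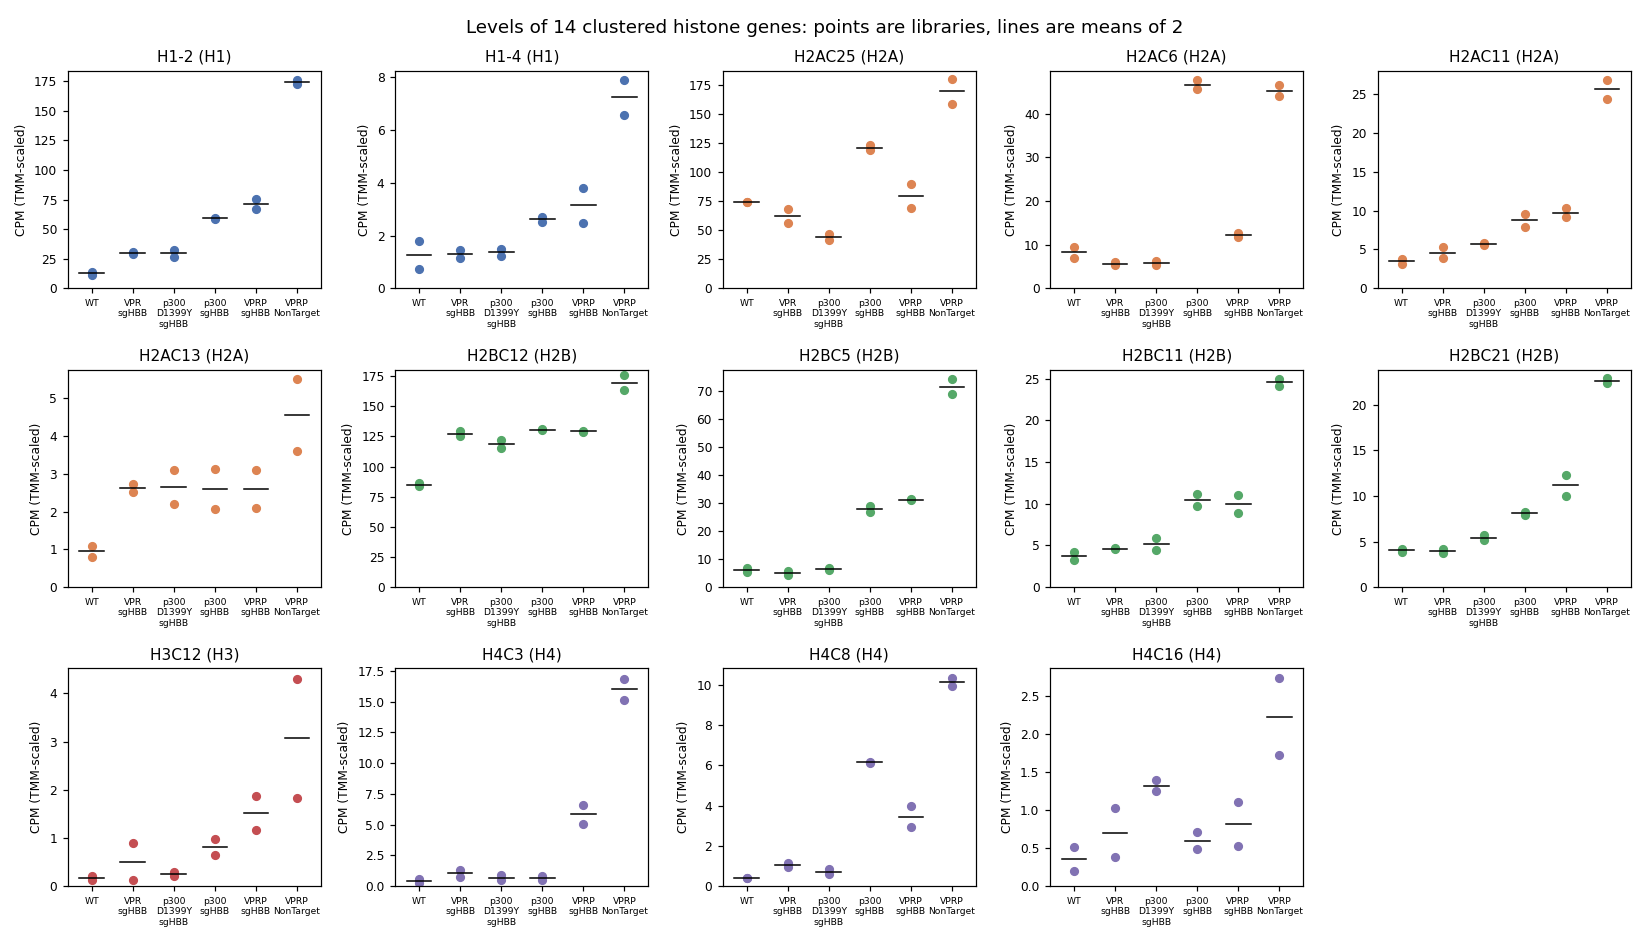
CPM (y axis, linear, starting at 0, scaled separately for each gene) in the 12 libraries for the 14 members described library by library. Points are libraries, lines group means and colours classes. VPRP NonTarget is highest in 13 of the panels by its mean, and in the H2AC6 panel p300 and VPRP NonTarget overlap.

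The p300 groups with and without impaired catalysis were compared directly. p300 against p300 D1399Y called 13 of the 25 tested members higher and none lower, where 15.4% of all genes were called higher and 15% lower. H4C8 was 8.77-fold higher (log2 3.13, SE 0.314, adjusted p = 1.95e-09), H2AC6 7.94-fold (log2 2.99, SE 0.136, adjusted p = 2.36e-18), H2BC5 4.34-fold (log2 2.12, SE 0.134, adjusted p = 2.28e-14), H2AC25 2.73-fold (log2 1.45, SE 0.0995, adjusted p = 1.93e-13) and H1-2 2-fold (log2 1.00, SE 0.0963, adjusted p = 7.75e-10). H2BC12, H2AC13 and H4C3 were not called, with log2 values of 0.14, -0.01 and -0.07. Without p300 D1399Y replicate 1 the count of called members was 7, and without p300 replicate 2 it was 8. The EP300 level differed between these groups too, at 1123 and 194 CPM, and amounts of fusion protein were not measured. The substitution, the dose and the line therefore cannot be told apart.

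VPRP and p300 were also compared under the same guide. VPRP sgHBB against p300 called 3 members higher and 3 lower, 12% of the tested members each. These shares are near those of all genes (14.3% and 13.7%), so the counts say nothing particular about the set. H4C3 was 9.11-fold higher (log2 3.19, SE 0.336, adjusted p = 4.32e-09), and H1-2 and H2BC21 were 1.20- and 1.38-fold higher (adjusted p = 0.0243 and 0.0267). H2AC6 was 3.82-fold lower (log2 -1.93, SE 0.122, adjusted p = 1.67e-14), H4C8 1.79-fold lower (log2 -0.84, SE 0.239, adjusted p = 0.00734) and H2AC25 1.53-fold lower (log2 -0.61, SE 0.0947, adjusted p = 6.50e-06). The H1-2 and H2BC21 calls were lost without VPRP sgHBB replicate 1 or either p300 library (adjusted p = 0.0894 to 0.281), and the H4C8 call without VPRP sgHBB replicate 2 (adjusted p = 0.123). EP300 was higher in p300 than in VPRP sgHBB, as given above, and its part in these differences was not tested. Against VPR, VPRP sgHBB called 12 members higher and none lower (24.7% and 25.1% of all genes), led by H2BC5 (log2 2.64, SE 0.140, adjusted p = 3.82e-17) and H4C3 (log2 2.46, SE 0.312, adjusted p = 5.03e-08). These groups lie on either side of the MAGEA10 split.

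The guide was compared within VPRP. VPRP sgHBB against VPRP NonTarget called 18 of the 25 tested members lower and none higher, where 14.4% of all genes were called lower and 14.9% higher. Under the HBB guide H2AC6 was 3.71-fold lower (log2 -1.89, SE 0.122, adjusted p = 2.98e-14), H4C8 2.95-fold (log2 -1.56, SE 0.229, adjusted p = 2.35e-06), H4C3 2.75-fold (log2 -1.46, SE 0.217, adjusted p = 3.08e-06), H1-2 2.45-fold (log2 -1.30, SE 0.0859, adjusted p = 6.23e-14) and H2BC12 1.31-fold (log2 -0.39, SE 0.0699, adjusted p = 5.17e-05). None of the 25 had a fitted value above 0, the range being -1.92 (H2BC26) to -0.21 (H2BC13). EP300 reads were also lower with the HBB guide, at 374 against 1171 CPM, and the groups lie on either side of the MAGEA10 split, so guide, fusion level and line cannot be told apart. VPRP NonTarget against p300 called 20 members higher and none lower (23.6% and 23.2% of all genes). EP300 was at 1171 and 1123 CPM in these groups, but they differ in guide as well as fusion and lie on either side of the MAGEA10 split, so these cannot be told apart. H4C3 was 25.1-fold higher (log2 4.65, SE 0.305, adjusted p = 1.79e-14), H1-2 2.95-fold (log2 1.56, SE 0.0871, adjusted p = 2.84e-16) and H2BC5 2.56-fold (log2 1.36, SE 0.105, adjusted p = 1.07e-12), while H2AC6 was not called (log2 -0.04, SE 0.107, adjusted p = 0.773). Without VPRP NonTarget replicate 1 the count of called members was 11.

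**Figure D4:**
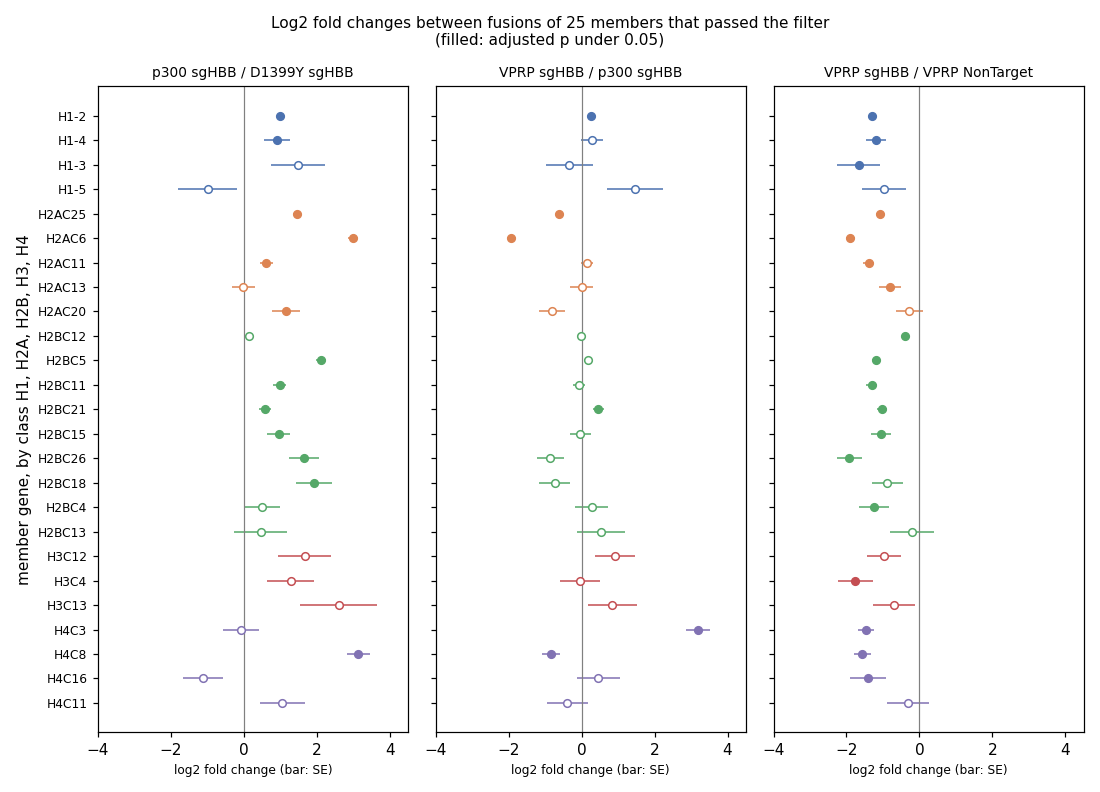
Log2 fold change (x axis, bars are SE) of the 25 tested members in 3 comparisons between fusions, coloured by class, with filled symbols for adjusted p under 0.05. H2AC6 and H4C8 lie far right for p300 against p300 D1399Y and left of 0 for VPRP sgHBB against p300, where H4C3 stands alone at 3.19.

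Neighbouring genes that share a stretch between their start sites did not always give the same call. In VPRP NonTarget against WT 24 of the 25 tested members were called higher, so shared calls there say nothing particular about pairs. Both genes were called higher in 4 of 5 such divergent pairs with both genes tested. These were H2BC11 and H2AC11 (log2 2.72 and 2.89), H2BC4 and H2AC6 (2.42 and 2.46), H2BC13 and H2AC13 (2.31 and 2.24), and H2AC25 and H2BC26 (1.19 and 2.43). On either side of the H2BC21/H2AC20 stretch printed above, with its octamer, 3 CCAAT motifs and a TATA motif facing each way, H2BC21 was called at 2.48 in VPRP NonTarget and H2AC20 was not (0.36), while with p300 both were called (1.00 and 0.90). The H2AC20 call with p300 was lost with DESeq2 and with the replicate block, as given above. Around the H2BC4/H2AC6 stretch the p300 value was 2.50 for H2AC6 and 0.90 for H2BC4, which was not called (adjusted p = 0.168). The difference between 2 genes of a pair was not tested, and where transcripts of near-identical or adjacent genes share reads the split depends on a counting rule that is not given in the sources used here.

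Other gene lists were counted beside the histone genes, and their counts are to be read against the shares of all genes. Against WT, 31.2% of all genes were called higher and 28.5% lower with VPRP NonTarget, 31.1% and 28% with VPRP sgHBB, 24.5% and 21.6% with p300, 13.8% and 11.5% with VPR, and 15.7% and 14.5% with p300 D1399Y. Of the 5 members listed as known to make tailed transcripts (H1-2, H2AC6, H2BC5, H2BC12 and H2BC21), all 5 rose against WT with VPRP NonTarget, VPRP sgHBB and p300, and 2 with VPR and p300 D1399Y, where 1, H2AC6, fell. The rise was not particular to these 5. Of all 25 tested members, these included, 24 rose with VPRP NonTarget and 19 each with VPRP sgHBB and p300. Histone genes are normally transcribed in S phase, and 19 genes of DNA replication and S phase were tested. Against WT 14 fell and 2 rose with VPRP NonTarget (73.7% and 10.5%), 13 fell and 4 rose with VPRP sgHBB (68.4% and 21.1%), and 8 fell, 3 rose and 8 were not called with p300 (42.1% fell and 15.8% rose), while 7 rose and 1 fell with VPR and 6 rose and 2 fell with p300 D1399Y. TK1, thymidine kinase, rose with VPRP NonTarget (log2 0.51), VPRP sgHBB (0.49) and p300 (0.53). RRM2, a subunit of ribonucleotide reductase, rose with p300 (0.54) and VPRP sgHBB (0.25) but was at 194 CPM in WT and 177 in VPRP NonTarget. CCNE2 was at 6.99 CPM in WT and 9.33 to 13 in the fusion groups, and CDC6 at 79 and at 86 to 104 CPM. These genes were named after their values were seen. Between p300 and p300 D1399Y, 9 of the 19 were lower in p300 and 1 higher (15% and 15.4% of all genes), and between VPRP sgHBB and VPRP NonTarget 7 were higher with sgHBB and 1 lower (14.9% and 14.4%). Their part in the histone differences was not tested. MCM7, a subunit of the replicative helicase, was at 814 ± 6.60 CPM in WT and 445 ± 2.86 in VPRP NonTarget (log2 -0.87), MCM4, of the same helicase, at 511 ± 0.779 and 345 ± 17.8 (log2 -0.57), MCM2 at 434 ± 22.0 and 314 ± 4.01 (log2 -0.47), and PCNA, the sliding clamp of DNA polymerase, at 335 ± 16.0 and 276 ± 9.33 (log2 -0.28). All 4 decreases were called. Of 11 G2 and M phase genes 10 rose with VPR (90.9%, against 13.8% of all genes), 7 with p300 (63.6% against 24.5%) and 6 with p300 D1399Y (54.5% against 15.7%), with none falling. With VPRP sgHBB 3 rose and 2 fell (27.3% and 18.2%) and with VPRP NonTarget 2 and 2 (18.2% each), near or below the shares of all genes. TOP2A, a topoisomerase, fell in VPRP NonTarget (304 ± 0.632 to 188 ± 3.51 CPM, log2 -0.69), and CDC20, an activator of the anaphase-promoting complex, rose (186 ± 5.24 to 271 ± 12.4 CPM, log2 0.54).

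Proteins that escort histones or process their mRNA are coded by a second set of lists. Of 14 chaperone genes 10 fell and 3 rose with VPRP NonTarget, 9 and 3 with VPRP sgHBB and 8 and 3 with p300, and 3 and 3 with VPR and 2 and 3 with p300 D1399Y. The shares that fell were 71.4%, 64.3% and 57.1% in the first 3 of these comparisons, where 28.5%, 28% and 21.6% of all genes fell, and 21.4% rose in each, where 31.2%, 31.1% and 24.5% of all genes rose. The 3 that rose, named after their values were seen, were ASF1A (log2 0.64 with VPRP NonTarget), ASF1B (0.61) and HJURP (0.61), carriers of H3 and H4 or of the centromeric H3 variant. Both subunits of the chaperone FACT were lower in VPRP NonTarget than in WT, SSRP1 at 389 ± 3.56 against 648 ± 22.9 CPM (log2 -0.74) and SUPT16H at 235 ± 16.6 against 441 ± 3.09 CPM (log2 -0.91), as were NAP1L1 (log2 -0.62) and NASP (log2 -0.71), a carrier of H3 and H4. Of 18 transcription and 3' end processing factors, 8 fell and 4 rose with VPRP NonTarget, 7 and 2 with VPRP sgHBB, 6 and 3 with p300, 5 and 1 with VPR and 4 and 1 with p300 D1399Y. With VPRP NonTarget these are 44.4% and 22.2%, against 28.5% and 31.2% of all genes, and with p300 33.3% and 16.7%, against 21.6% and 24.5%. UPF1, a helicase needed for the decay of histone mRNA, was at 318 ± 7.13 CPM in WT and 169 to 216 CPM in the fusion groups, called lower in all 5 (log2 -0.56 to -0.91). SYMPK, a scaffold of the cleavage complex, was also lower in all 5 (log2 -0.35 to -0.64), SRRT was higher in all but VPR, and NCBP1, of the cap-binding complex, was called with p300 alone (log2 0.19). SLBP and NPAT, an activator of histone gene transcription, are named beyond the rule for their role. SLBP was called higher with VPR (log2 0.24, adjusted p = 0.0189) and NPAT in no comparison with WT, their values with VPRP NonTarget being log2 0.13 and -0.21.

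The mRNAs of most replication-independent histones carry ordinary poly(A) tails. Of 11 tested variants 6 rose and 1 fell with VPRP NonTarget, with p300 and with p300 D1399Y, 6 and none with VPR, and 5 and 1 with VPRP sgHBB. Of all genes 31.2%, 24.5% and 15.7% rose in the first 3 of these comparisons, 13.8% with VPR and 31.1% with VPRP sgHBB. The list's median log2 change against WT was 0.20 to 0.36. H3-3A, H3-3B and H2AZ1, the most counted, stayed within log2 -0.14 to 0.39 of WT. Other variants moved further, so the list was not stable as a whole. From WT to VPRP NonTarget, H2AJ went from 12.1 to 43.1 CPM, H2AX from 225 to 401 and MACROH2A2 from 108 to 50.7, genes named after their values were seen. Whether other RNAs without tails entered the libraries could not be checked, since 2 of the 16 listed had an ID. Of these TERC, the telomerase RNA, was at 0.570 ± 0.714 CPM in WT and 1.85 ± 0.652 in VPRP NonTarget (log2 1.69, SE 0.591, adjusted p = 0.0139), and RNU4ATAC was at 0 outside the VPRP groups.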

How the data were processed

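RNA was sequenced from 12 libraries, 2 in each of 6 groups, and the 10 ChIP-seq samples of the series (2 of them with conflicting labels) were not analysed here. The authors deposited raw read counts as whole numbers, with no normalization. The submitters' processing notes name STAR 2.5, HTSeq 0.6.1, DESeq2 1.24.0 and the build hg19 with no role or order. Annotation release, strand setting and treatment of reads with several matches are not stated in the sources used here, so near-identical or overlapping histone genes are uncertain. Symbols from a gene name table matched 33626 IDs, and 19 pseudogene symbols were left out. Columns were assigned by their own names.

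Counts were analysed with edgeR 4.0.16 in R 4.3.3: filterByExpr by group (minimum count 10, minimum total 15), TMM factors, 1 mean per group over all 12 libraries, the quasi-likelihood test and Benjamini-Hochberg adjustment over 16694 genes in each of 10 comparisons, at 0.05. SE is the size of a log2 fold change over the square root of its F. CPM uses the same factors (0.957 to 1.065). Against a group with 0 counts a limit from 3 counts over the group is given, and against 1 to 3 counts the ratio with its exact binomial 95% interval. Since no molecular identifiers were used, these bounds hold for counting error alone. The steps were tested on simulated data.

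Members, lists and tests were chosen with earlier results of these data known. By rule, up to 4 members per class with the highest mean CPM, at 1 CPM or more, are given in every library, other tested members by range, and up to 4 genes per list by mean CPM. One gene that this rule names is not reported here. Promoters came from RefSeq. Tried beside this were other factors (RLE, upper quartile), DESeq2 1.42.0, no filter, a stricter filter (1 CPM in 2 libraries), models of just the 2 groups compared, a replicate block, a crossed block added after seeing the data, and each library left out. Figures used matplotlib 3.10.9.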

Additional observations from a re-analysis of the deposited data

How the results depend on the processing

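No member called in the main fit changed direction under any alternative run, and values without a call were not checked for this. The balance of calls over all genes did turn over in places. With RLE factors VPR against WT called 2074 higher and 2153 lower (main 2307 and 1913). For p300 D1399Y against WT the counts were 2466 and 2626 (main 2626 and 2419), and for VPRP sgHBB against VPR 4233 and 3972 (main 4118 and 4189). The number of called members stayed within 1.5 times its value under the other scalings, filters, the fits of the compared groups alone and the replicate block, except that DESeq2 called 4 in VPR against WT in place of 8. Leaving out 1 library gave 3 to 8 calls for VPR against WT (main 8; 3 without WT replicate 2 and 5 without WT replicate 1), 5 to 7 for p300 D1399Y against WT (main 8; 5 without WT replicate 2), 7 to 12 for p300 against p300 D1399Y (main 13) and 11 to 18 for VPRP NonTarget against p300 (main 20; 11 without VPRP NonTarget replicate 1). It gave 22 for VPRP NonTarget against WT (main 24), 15 to 16 for VPRP sgHBB and for p300 against WT (main 19 each), and 12 to 18 for VPRP sgHBB against VPRP NonTarget (main 18). Members called in every alternative numbered 20 of 24, 12 of 19, 11 of 19, 2 of 8 (H1-2 and H2BC12) and 3 of 8 (H1-2, H2AC25 and H2BC12) for VPRP NonTarget, VPRP sgHBB, p300, VPR and p300 D1399Y against WT, 7 of 13 for p300 against p300 D1399Y, and 12 of 18 for VPRP sgHBB against VPRP NonTarget.

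No clear pairing of libraries by number was seen: the correlation of deviations was -0.156 to 0.146. Such weak values cannot show whether libraries of the same number were handled together. With the replicate block 18 members were called in VPRP sgHBB against WT, 18 in p300 against WT, 12 in p300 against p300 D1399Y and 18 in VPRP NonTarget against p300, where the fit without it called 19, 19, 13 and 20. With the numbers of 1 group swapped, 13 were called for p300 against p300 D1399Y and 12 for VPRP sgHBB against VPR. Calls over all genes fell by more than 1.5 times in VPR against WT (2746 without VPR replicate 2, 2752 and 2548 without WT replicate 1 and 2), p300 against p300 D1399Y (3226 without p300 replicate 1, 3193 without p300 D1399Y replicate 1), VPRP sgHBB against p300 (3089 without p300 replicate 1) and VPRP sgHBB against VPRP NonTarget (3185 and 3200 without VPRP NonTarget replicate 1 and 2). The cause was not tested. The ratio of the summed members in VPRP NonTarget to WT was 3.75, 3.76 and 3.88 with TMM, RLE and upper-quartile factors. In VPRP NonTarget against WT the median over all genes was 0.04 (log2), 0.09 with edgeR and no filter, and 0.14 with DESeq2, which was run on the same 32291 unfiltered genes, so the filter and the tool changed together there. Members under 1 CPM rest on few reads, and a difference there may not be detectable at this depth.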
